A study of Mus musculus with 24 samples.

Results

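Samples titled adipose were compared with samples titled muscle in both genotypes of the series, 6 adipose against 6 muscle samples, which are 12 of the 24 samples in all. The 12 samples were chosen by their titles and fall into 4 groups of 3: adipose tissue of B6 mice, adipose tissue of congenic mice, muscle of B6 mice and muscle of congenic mice. The adipose tissue was epididymal white fat and the muscle was gastrocnemius, per the labels' protocols, and the design text gives 3 biological replicates for each group. B6 is an inbred laboratory strain, and the congenic mice, named B6.S-2, carry a chromosome segment of another strain on that background. Going by its title, the series looked for positional candidate genes behind body weight and adiposity. The labels set the treatment of every sample, those titled B6 included, to congenic, so genotype rests on the titles. They tie no sample to an age, a sex or a diet, although the growth protocol speaks of a chow diet and of a high fat diet for a group of congenic males. The labels do not say whether fat and muscle came from the same animals.

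RNA was read on a custom single-colour NimbleGen array whose probes cover exons of 333 genes of chromosome 2, between bases 121896708 and 167412296 in the coordinates of the deposited files, and of 8 genes elsewhere. The genome build of those coordinates is not given in the sources used here. All 12 arrays lay on the same slide, whose well rows A, B and C each held 1 array of each of the 4 groups. The median raw intensity ran from 916 on congenic muscle replicate 2 to 3571 on B6 muscle replicate 3. Levels are given as log2 intensity after normalization over the 12 arrays, and a difference is adipose minus muscle in log2 units, so that 1 unit is a doubling. Within a tissue, gene levels of any 2 arrays correlated at 0.916 to 0.989 across genes, and between tissues at 0.678 to 0.805. A set of 341 genes on 1 array platform cannot stand for the whole transcriptome, and brightness differs between probes, so levels of different genes are not compared as amounts, and ranks of brightness are given only where they limit a value.

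The array region holds several gene clusters that bear on the tissue of origin. The epididymal fat pad lies against the epididymis, the duct in which sperm mature. The lining of that duct secretes small proteins that coat sperm and inhibit proteases, among them cystatins, beta-defensins and inhibitors with WFDC or Kunitz domains. The seminal vesicle, a nearby gland, secretes the Svs proteins of the copulatory plug. Fast skeletal muscle contracts when calcium binds troponin C, and it regulates its myosin through a muscle-specific light chain kinase.

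The 3 genes with the largest excess in the adipose samples were genes of epididymal secretion. Defb20, Spint4 and Cst11 were 13.3-fold to 17.6-fold higher in adipose samples than in muscle. In the opposite direction, the fast troponin C gene Tnnc2 was 32.6-fold higher in muscle, on a scale limited from above for this gene, and the myosin light chain kinase gene Mylk2 4.80-fold higher. The adipocyte genes Adig, Lep and Pltp were also higher in adipose samples, by 1.24-fold to 1.52-fold, while the adipocyte and lipid list as a whole had a median difference of -0.14.

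Of the 341 genes, 163 differed between the tissues (limma with genotype as a covariate, Benjamini-Hochberg adjusted p under 0.05), which is 47.8% of those tested. They were 66 genes higher in adipose samples, or 19.4%, and 97 higher in muscle, or 28.4%. At an unadjusted p under 0.05 the count was 187. The median difference over all genes was -0.05, and the median size of a difference 0.12. Most of the called differences were small, with a median of 0.42 among the genes higher in adipose samples and of -0.22 among those higher in muscle. Past the threshold, 16 genes (4.69%) were over 2-fold higher in adipose samples and 2 (0.587%) in muscle. Of the 16, 9 were on the epididymis list described next. The direction split depended on the processing. In the authors' value table, 58 of 202 called genes were higher in adipose samples and 144 higher in muscle. That table covers only the 301 genes with a symbol and also differs in summarisation, so its counts are not on the same set of genes. Without normalization between arrays, 19 of the 341 genes were higher in adipose samples and 2 in muscle. All 6 adipose values lay above all 6 muscle values in 35 genes, or 10.3%, and below them in 44 genes, or 12.9%. Of the 163 genes, 160 had the same sign in each of the 3 well rows, and a fit that held well row as a block called 166 genes.

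**Figure D1:**
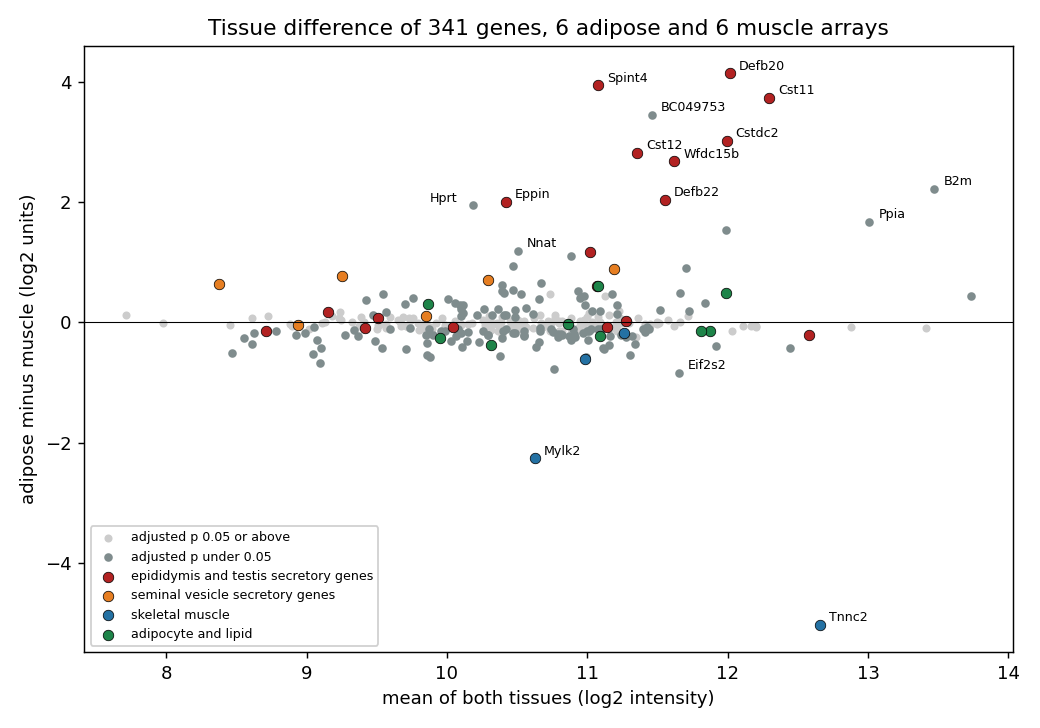
Adipose minus muscle difference of each gene in log2 units (vertical axis) against its mean log2 intensity over both tissues (horizontal axis), 341 points, with members of the epididymis, seminal vesicle, skeletal muscle and adipocyte lists in colour whether or not they passed the test. Tnnc2 lies lowest at -5.03 and Defb20 highest at 4.14, and the labelled genes above 2 log2 units are mostly epididymis genes.

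Epididymis genes stood far above muscle in every adipose sample. The list held 38 genes of the epididymis and testis, of which 18 were measured under their gene symbols. The 40 transcripts without a symbol could not be matched to this or any other list. Of these 18, 10 were higher in adipose samples, 2 were lower and 6 did not pass the threshold, against 19.4% higher and 28.4% lower over all genes. The median difference of the 18 was 0.89, where the median of all genes was -0.05. The groups did not overlap in 10 of the 18 genes, the same 10 that were higher in adipose samples. Over all genes, 10.3% had all 6 adipose values above all 6 muscle values. The mean level of the list ran from 11.51 to 11.67 on the 6 adipose arrays and from 10.10 to 10.34 on the 6 muscle arrays. In bulk tissue, fewer cells of a type and less RNA per cell cannot be told apart, here or in the results that follow.

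The beta-defensin gene Defb20, which encodes a small antimicrobial peptide of the epididymis, had a log2 intensity of 13.73 at the lowest, 14.16 at the median and 14.36 at the highest on the adipose arrays, and of 9.46, 9.62 and 10.80 on the muscle arrays. The groups were separated by several log2 units, and the 2 highest muscle arrays were those of well row A. The difference was 4.14 ± 0.26 (SE, n = 6 per tissue; limma, adjusted p = 6.55e-08). Within well rows A, B and C it was 3.01, 4.67 and 4.73. Of the other beta-defensin genes, Defb22 was higher in adipose samples by 2.03 ± 0.08, Defb29 by 1.17 ± 0.07 and Defb21 by 0.61 ± 0.04, all with the groups apart. Defb19, at 0.03, did not pass, and Defb36, at -0.20 (limma, adjusted p = 0.00932), was lower in adipose samples.

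Spint4, which encodes a Kunitz-type protease inhibitor, had adipose levels of 12.52, 13.05 and 13.34 (lowest, median, highest) and muscle levels of 8.83, 8.92 and 9.62. No muscle array came near the lowest adipose array. The difference was 3.94 ± 0.17 (limma, adjusted p = 2.94e-09), with 3.68, 4.24 and 3.91 in well rows A, B and C. Eppin, whose protein carries both a WFDC and a Kunitz domain and coats sperm, ran from 11.22 to 11.67 on adipose arrays and from 9.31 to 9.51 on muscle arrays, a difference of 2.00 ± 0.08. Wfdc15b, another gene of the WFDC family, was higher by 2.68 ± 0.14, while its neighbour in name Wfdc15a had a difference of -0.08 and did not pass. The tissues were apart in Spint4, Eppin and Wfdc15b and overlapped in Wfdc15a.

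Cst11, which encodes a cystatin of the epididymis, stood at 14.17, 14.04 and 14.24 on the B6 adipose arrays, at 14.13, 14.24 and 14.13 on the congenic adipose arrays, at 10.21, 10.20 and 11.06 on the B6 muscle arrays and at 10.18, 10.10 and 10.83 on the congenic muscle arrays. The adipose arrays hardly differed among themselves, and the third array of each muscle group was the highest of its group. The difference was 3.73 ± 0.16 (limma, adjusted p = 2.49e-09). Quantile normalization gives the brightest exon feature of each array the same value, 15.466, and that feature belonged to Cst11 on all 6 adipose arrays and to Tnnc2 on all 6 muscle arrays, so the spread and the difference of these genes are limited from above. Cstdc2 (3.02 ± 0.20) and Cst12 (2.81 ± 0.15), also of the cystatin family, were higher in adipose samples without overlap. Cst9 at 0.17 (limma, adjusted p = 0.0910), Cstl1 at 0.06 and Cstdc1 at -0.09 did not pass, and Cst13 at -0.14 (adjusted p = 0.0267) was lower in adipose samples. Cst9 did pass without B6 adipose replicate 1 (0.21) and without B6 muscle replicate 2 (0.22) or 3 (0.22) or congenic muscle replicate 1 (0.20), 2 (0.16) or 3 (0.22). Cst13, Defb36 and the other members outside the naming rule were named after their values were seen. Probe sequences were not compared between these related genes, so cross-hybridisation within a family was not tested.

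The transcript BC049753, which has no gene symbol in the annotation used, lies at bases 148551392 to 148558140 of chromosome 2 between Cst12 and Cst13. Its level was 12.69, 13.30 and 13.60 on adipose arrays and 9.16, 9.64 and 10.38 on muscle arrays (lowest, median, highest). The ranges were apart, and the difference of 3.45 ± 0.19 (limma, adjusted p = 2.74e-08) lies between those of Cst11 and Cstdc2. Its neighbours on the array differ from each other, with Cst12 higher in adipose samples by 2.81 and Cst13 lower by a log2 difference of -0.14.

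**Figure D2:**
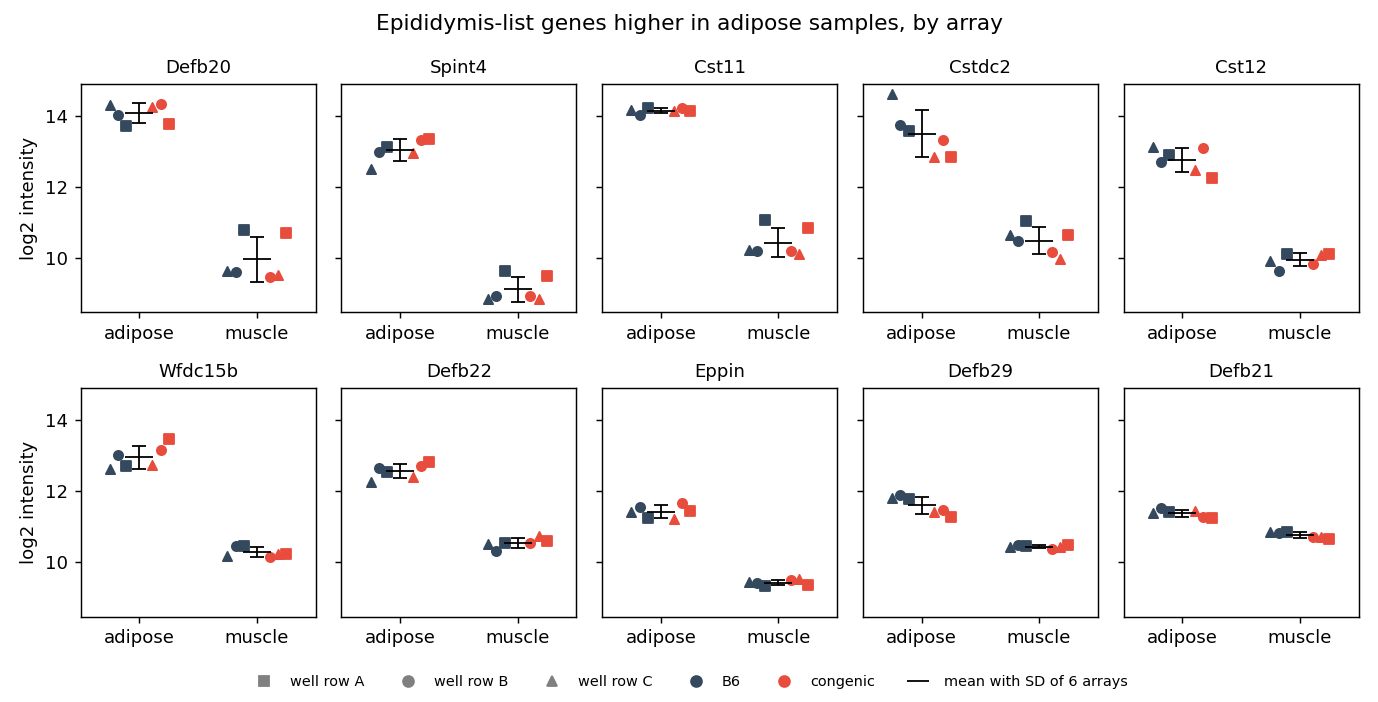
Log2 intensity of the 10 epididymis-list genes that were higher in adipose samples, 1 panel per gene and 1 point per array, with colour for genotype, shape for well row and the mean with SD of 6 arrays. The groups are apart in all 10 panels, and in Defb20, Spint4 and Cst11 both muscle squares, the arrays of well row A, lie above the other 4 muscle arrays.

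Promoter sequences are shown for Tnnc2, the gene with the largest difference towards muscle, and for 3 of the epididymis genes with large differences towards adipose samples. RefSeq (GRCm38.p6) gave a window of 250 bases before to 50 bases after the gene start for 58 of 74 genes. These 74 were picked by the naming rule given with the processing below. Cst11 and Mylk2 had no window. These coordinates belong to GRCm38 and do not match those of the deposited files. Tnnc2 is at chr2:164779685-164779984 on the minus strand, Defb20 at chr2:152476813-152477112, Spint4 at chr2:164698251-164698550 and Cst12 at chr2:148789115-148789414, the last 3 on the plus strand. Capitals mark the E-box CANNTG, the core bound by muscle regulatory factors among others and its own reverse complement in form, and AGAACA or its reverse complement TGTTCT, a half-site of steroid receptors such as the androgen receptor.
Tnnc2: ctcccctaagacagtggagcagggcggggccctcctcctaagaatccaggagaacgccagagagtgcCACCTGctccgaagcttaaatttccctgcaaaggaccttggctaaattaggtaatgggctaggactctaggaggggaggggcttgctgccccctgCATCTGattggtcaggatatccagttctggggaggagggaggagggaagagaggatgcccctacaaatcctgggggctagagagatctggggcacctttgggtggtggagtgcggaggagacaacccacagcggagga
Defb20: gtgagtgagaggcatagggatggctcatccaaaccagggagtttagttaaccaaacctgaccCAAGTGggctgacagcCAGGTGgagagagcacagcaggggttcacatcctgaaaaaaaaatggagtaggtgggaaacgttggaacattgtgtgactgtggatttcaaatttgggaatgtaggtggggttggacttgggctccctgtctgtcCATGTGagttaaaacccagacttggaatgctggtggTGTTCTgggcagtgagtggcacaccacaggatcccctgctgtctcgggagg
Spint4: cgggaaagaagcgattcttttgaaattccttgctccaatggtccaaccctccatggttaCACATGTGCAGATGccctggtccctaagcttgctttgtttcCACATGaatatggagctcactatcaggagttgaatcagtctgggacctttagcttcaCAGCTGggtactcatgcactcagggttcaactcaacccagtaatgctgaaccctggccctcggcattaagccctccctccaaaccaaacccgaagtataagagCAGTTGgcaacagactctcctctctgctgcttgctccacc
Cst12: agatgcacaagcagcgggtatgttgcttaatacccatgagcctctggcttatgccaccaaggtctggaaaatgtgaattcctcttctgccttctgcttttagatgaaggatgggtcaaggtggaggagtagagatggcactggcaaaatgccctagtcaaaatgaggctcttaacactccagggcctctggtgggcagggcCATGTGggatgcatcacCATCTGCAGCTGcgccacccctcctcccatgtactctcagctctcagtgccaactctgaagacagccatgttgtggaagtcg
CANNTG occurred 2 times in the Tnnc2 window, 3 times in that of Defb20, 6 times in that of Spint4 and 3 times in that of Cst12, and 2 of the Spint4 matches overlapped. A window with CANNTG was common, at 72.3% of all 32851 RefSeq promoter windows and 66.6% of the 302 windows of genes on the array. AGAACA or TGTTCT occurred 1 time in the Defb20 window and 0 times in the other 3, against 19.0% of all windows with a match. These matches describe letters in a window and nothing about binding.

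In muscle, the same epididymis genes were not at a uniform level. On the 2 muscle arrays of well row A, B6 replicate 3 and congenic replicate 3, the mean level of Defb20 was 10.75, against 9.55 on the other 4 muscle arrays. Cst11 was at 10.95 against 10.17, and Spint4 at 9.56 against 8.88. Of the 10 epididymis genes higher in adipose samples, 5 had both values of well row A above the other 4 muscle arrays, as did 23 of all 341 genes, or 6.74%. Another 1 of the 10 had both values below those 4 arrays, as did 32 of all 341 genes. Of the 16 genes over 2-fold higher in adipose samples, 8 had both values above, including B2m at 12.78 against 12.16, and 1 had both below. In the authors' value table a single muscle column of each genotype was likewise high, with Cst11 at 9.85 and 9.53 in columns numbered replicate 1 and at 8.43 to 8.51 in the other 4. On the adipose arrays of well row A, Tnnc2 was at 10.16 and 10.07. The lowest and the highest of the 6 adipose arrays, 9.85 and 10.46, were of other well rows. Without both muscle arrays of well row A, an alternative added after the data were seen, 139 genes passed, 60 of them higher in adipose samples and 79 higher in muscle, and the difference was 4.53 for Defb20, 4.14 for Spint4 and 4.01 for Cst11. What made these 2 arrays differ was not tested.

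Seminal vesicle genes did not pass the test between the tissues, and their levels differed widely among arrays of the same tissue. All 6 genes of the list were measured and 0 passed, at an unadjusted p that was also above 0.05 for each. Their median difference was 0.67. Svs4, which encodes a major secreted protein of the gland, stood at 11.69, 10.20 and 10.92 on the B6 adipose arrays, at 13.14, 11.80 and 12.05 on the congenic adipose arrays, at 10.13, 10.30 and 10.31 on the B6 muscle arrays and at 10.16, 10.25 and 13.36 on the congenic muscle arrays. Congenic adipose replicate 1 and congenic muscle replicate 3 were the highest of their tissues. The other 5 muscle arrays lay between 10.13 and 10.31, and every adipose array except B6 replicate 2, at 10.20, lay above those 5. The difference was 0.88 ± 0.51 (limma, adjusted p = 0.171).

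The same 2 arrays were the highest of their tissues for Svs2 (11.39 and 11.00), Svs5 (12.40 and 12.32) and Svs6 (10.64 and 10.44). Svs3a and Svs3b had differences of 0.10 and -0.05. Without congenic muscle replicate 3 alone, Svs4 differed by 1.36 (limma, adjusted p = 0.0114) and Svs2 by 1.15 (adjusted p = 0.0262). Without both arrays Svs4 differed by 1.12 (limma, adjusted p = 0.0112) and Svs2 by 0.85 (adjusted p = 0.0104), while 158 genes passed in all, 66 higher in adipose samples and 92 higher in muscle. Without congenic muscle replicate 1 or 2, in contrast, the difference of Svs4 was 0.52 and 0.54. Over all alternatives, those without a single array included, the adjusted p (limma) ran from 0.0112 to 0.420 for Svs4 and from 0.0104 to 0.478 for Svs2. On congenic adipose replicate 1 the epididymis gene Cst11 was at 14.13, and the adipose arrays ran from 14.04 to 14.24. That range includes the array itself, and the normalization limits Cst11 from above on every adipose array. The value of Cst11 therefore cannot show whether the epididymis signal of this array differed. The mean level of the epididymis list on this array was 11.51, the lowest of the 6 adipose arrays, whose highest was 11.67. Its mean level of the seminal vesicle list, 11.25, was the highest of the 6. These list means were not tested between arrays. The source of the seminal vesicle signal was not tested.

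**Figure D3:**
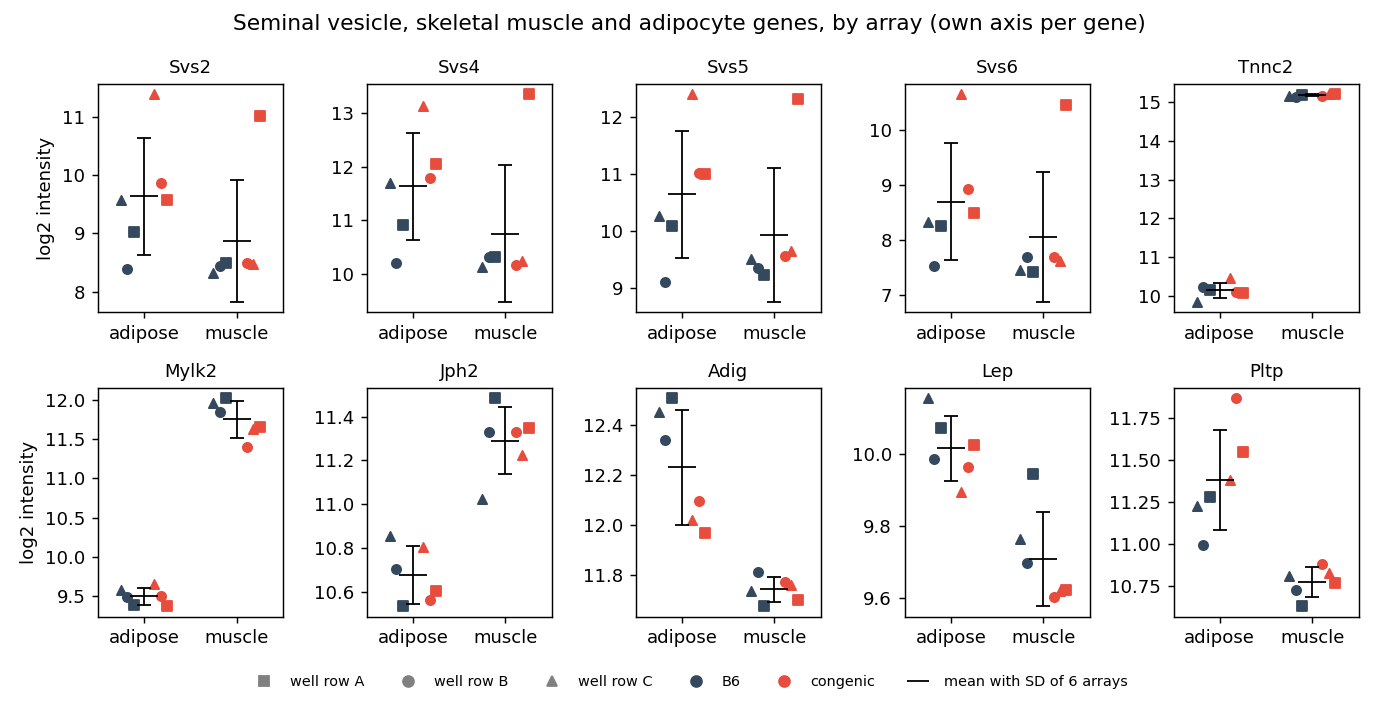
Log2 intensity of 4 seminal vesicle genes, 3 skeletal muscle genes and 3 adipocyte genes on each of the 12 arrays, with the mean and SD of 6 arrays per tissue and a separate axis for each gene. In the Svs panels a congenic adipose array and a congenic muscle array are the highest of their tissues, whereas Tnnc2, Mylk2, Adig and Pltp separate the tissues on all arrays.

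Muscle genes marked the muscle samples clearly. Of the 6 genes of the skeletal muscle list 4 were measured, 3 of them were higher in muscle without overlap and the fourth, Neurl2, had a difference of -0.18 (limma, adjusted p = 0.0613). The median of the 4 was -1.44, where that of all genes was -0.05. Over all genes 28.4% were higher in muscle, and 12.9% had all 6 adipose values below all 6 muscle values. In the authors' value table Neurl2 differed by -0.42 (limma, adjusted p = 2.19e-04; up to 0.999 over its alternatives), and with array weights by -0.19. It also passed without B6 adipose replicate 3 (-0.22), congenic adipose replicate 1 (-0.21) or the muscle arrays of well row A (-0.22 without that of B6 and -0.21 without that of congenic mice).

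Tnnc2, the calcium-binding subunit of fast troponin, had levels of 15.13, 15.17 and 15.20 on muscle arrays and of 9.85, 10.13 and 10.46 on adipose arrays (lowest, median, highest). The lowest muscle array lay 4.68 log2 units above the highest adipose array. The difference was -5.03 ± 0.08 (limma, adjusted p = 9.82e-14), with -5.08, -4.98 and -5.03 in well rows A, B and C, and ran from -5.77 to -4.70 over the other settings. Its 6 exon features were the 6 brightest of every muscle array, and 7 of their raw readings lay between 61277 and 65535, at the top of the scanner's range, so the muscle level is limited from above.

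Mylk2, the myosin light chain kinase of skeletal muscle, had levels of 11.40, 11.76 and 12.03 in muscle and of 9.37, 9.50 and 9.65 in adipose samples. Every muscle array lay above every adipose array, by a difference of -2.26 ± 0.09 (limma, adjusted p = 1.27e-09). Jph2, whose protein holds the plasma membrane and the sarcoplasmic reticulum together, differed by -0.61 ± 0.08 (limma, adjusted p = 6.29e-05). Its lowest muscle value of 11.03 lay above its highest adipose value of 10.86.

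Adipocyte and lipid genes went in both directions. Of the 10 genes of the adipocyte and lipid list 9 were measured: 3 were higher in adipose samples, 2 higher in muscle and 4 did not pass, against 19.4% higher in adipose samples and 28.4% higher in muscle over all genes. The median difference of -0.14 was below the -0.05 of all genes. Adig, which encodes the adipocyte protein adipogenin, stood at 11.97, 12.22 and 12.51 on adipose arrays and at 11.68, 11.75 and 11.81 on muscle arrays (lowest, median, highest). The groups were apart by 0.16 log2 units, with the B6 adipose arrays above the congenic ones. The difference was 0.49 ± 0.07 (limma, adjusted p = 1.73e-04).

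Lep, which encodes the adipocyte hormone leptin, ran from 9.90 to 10.16 on adipose arrays and from 9.60 to 9.94 on muscle arrays. The highest muscle array, B6 replicate 3 of well row A, lay above the lowest adipose array, so the groups overlapped. The difference of 0.31 ± 0.05 passed the test (limma, adjusted p = 2.54e-04). Pltp, which encodes a phospholipid transfer protein of plasma lipoproteins, ran from 11.00 to 11.87 against 10.63 to 10.88, a difference of 0.61 ± 0.09 (limma, adjusted p = 1.94e-04) without overlap. Acss1 (-0.38 ± 0.07) and Acss2 (-0.26 ± 0.04), the mitochondrial and the cytosolic enzyme that activate acetate, were higher in muscle. Fitm2, a gene of lipid droplet formation, had a difference of -0.23 (limma, adjusted p = 0.0619) and passed without congenic adipose replicate 2 (-0.29) or 3 (-0.28). The agouti gene a had -0.14 (limma, adjusted p = 0.0845) and passed without B6 muscle replicate 2 (-0.16).

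Some genes of general function also stood high in adipose samples. B2m, the light chain of class I histocompatibility molecules, had adipose levels of 14.12, 14.64 and 14.86 and muscle levels of 12.11, 12.21 and 13.14 (lowest, median, highest). The groups did not overlap, although B6 muscle replicate 3 stood above the other muscle arrays. The difference was 2.22 ± 0.17 (limma, adjusted p = 5.13e-07), and B2m was the single member of the 8 measured macrophage and immune genes higher in adipose samples. Cst7, a cystatin of immune cells, was higher in muscle by a difference of -0.25, and 6 members did not pass (over all genes 19.4% were higher in adipose samples and 28.4% higher in muscle), Cd40 at 0.04 and Ada at -0.12 among them.

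Hprt, an enzyme of purine salvage, and Ppia, which encodes cyclophilin A, are often used as reference genes. Hprt differed by 1.95 ± 0.18 (limma, adjusted p = 2.34e-06) and Ppia by 1.67 ± 0.09 (adjusted p = 1.65e-08), both higher in adipose samples without overlap and with the same sign under each of the 17 other processing settings, no normalization included. Ppia ran from 13.64 to 14.09 on adipose arrays and from 12.05 to 12.35 on muscle arrays. Nnat, which encodes the membrane proteolipid neuronatin and is imprinted, ran from 10.30 to 11.77 against 9.63 to 10.07. Its difference of 1.19 ± 0.19 (limma, adjusted p = 2.97e-04) was the only one higher in adipose samples among 8 measured neuronal genes, of which 2 were higher in muscle, Napb by -0.43 and Ndrg3 by -0.11, against 19.4% and 28.4% of all genes. Nnat lies within the span of Blcap in the files' coordinates.

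Of 9 measured mitochondrial genes 4 were higher in muscle and 0 higher in adipose samples, against 28.4% and 19.4% of all genes, with a median of -0.15 where that of all genes was -0.05. Ndufaf5, an assembly factor of respiratory complex I, differed by -0.57 ± 0.06 (limma, adjusted p = 6.88e-06). Its muscle levels of 10.52 to 10.83 lay above its adipose levels of 9.99 to 10.20. Uqcc1, an assembly factor of complex III, differed by -0.54 ± 0.07, and Nfs1, the cysteine desulfurase of iron-sulfur cluster synthesis, by -0.41 ± 0.05. The fourth was Acss1, already given, and Tomm34 at 0.08, Srxn1 at -0.15 and 3 others did not pass. Srxn1 passed without congenic muscle replicate 1 (-0.27).

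Of 12 measured genes of RNA processing and translation, 3 were higher in adipose samples and 5 higher in muscle, against 19.4% and 28.4% of all genes, and their median of -0.07 was close to the -0.05 of all genes. Eif2s2, the beta subunit of translation initiation factor 2, differed by -0.84 ± 0.13 (limma, adjusted p = 2.30e-04), with 11.86 to 12.33 in muscle and 10.92 to 11.72 in adipose samples. Cse1l, the export receptor of importin alpha, differed by -0.58 ± 0.04 and the splicing factor gene Crnkl1 by -0.53 ± 0.07. Rpn2, a subunit of the oligosaccharyltransferase of the endoplasmic reticulum, was higher in adipose samples by 0.90 ± 0.05, with 11.99 to 12.25 against 11.13 to 11.32. Dhx35 at -0.05 and Nxt1 at -0.25 did not pass, and Nxt1 did without B6 adipose replicate 3 (-0.32). Without gene symbols, AK016198 (-0.78 ± 0.08) and U00677 (-0.58 ± 0.04) were also higher in muscle, as were Mroh8 (-0.68 ± 0.08) and Rab5if (-0.54 ± 0.09).

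Genes of vesicle traffic went both ways. Of 9 measured, 4 were higher in adipose samples, among them Snx5, a sorting nexin of endosomes, by 0.66 ± 0.09, Ywhab, which encodes a 14-3-3 protein, by 0.48 ± 0.09 and Sec23b, a coat component of vesicles leaving the endoplasmic reticulum, by 0.47 ± 0.04. Another 3 were higher in muscle and 2 did not pass, with a median of 0.07, against 19.4% higher in adipose samples and 28.4% higher in muscle over all genes. Rin2 at -0.12 was 1 of the latter and passed without B6 muscle replicate 3 (-0.13), and Stk4 at 0.07 was the other.

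Of 6 measured endothelial and vessel wall genes 4 were higher in adipose samples and 1 was higher in muscle, against 19.4% and 28.4% of all genes, with a median of 0.16. Myl9, a myosin light chain of smooth muscle, was higher by 0.44 ± 0.10 and Id1, an inhibitor of helix-loop-helix transcription factors, by 0.38 ± 0.06, both with overlapping groups. Cd93 was higher by 0.19 (limma, adjusted p = 0.0236), a call lost without B6 adipose replicate 2 (0.18) or congenic adipose replicate 1 (0.18). Procr, the endothelial receptor of protein C, differed by -0.22 (limma, adjusted p = 0.0110), lost without B6 adipose replicate 1 (-0.17), and Thbd at 0.11 did not pass.

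The hepatocyte, cell division and growth lists were small, and their counts stand against 19.4% of all genes higher in adipose samples and 28.4% higher in muscle. Of 4 hepatocyte genes Lbp, the lipopolysaccharide-binding protein gene, was higher in adipose samples by 0.41 ± 0.05. Ahcy at -0.10 and Foxa2 at -0.12 were higher in muscle and Hnf4a at 0.02 did not pass. The call of Ahcy was lost without B6 muscle replicate 1 (-0.08), and that of Foxa2 on leaving out any array other than congenic adipose replicate 1 and congenic muscle replicate 3 (-0.12 to -0.09). Of 6 cell division genes 3 were higher in muscle, with Gins1, of the replication helicase, at -0.36, Tpx2, of the mitotic spindle, at -0.15 and E2f1 at -0.14. The call of E2f1 was lost without B6 adipose replicate 3 or congenic adipose replicate 3 (-0.11 each), and its difference was -0.036 in the fit of all 8 groups and -0.052 with only B6 arrays. Without both muscle arrays of well row A the call of Tpx2 was lost (-0.13), as was that of Gdf5, a growth factor gene (-0.14). Of 5 growth and hormone genes Gdf5 was higher in muscle at -0.23. Its difference was -0.14 without congenic muscle replicate 2 and -0.15 without B6 muscle replicate 1, congenic muscle replicate 1 or congenic muscle replicate 3.

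Exon by exon, the tissue difference kept its direction in all features of Tnnc2, Mylk2, Spint4, Cst11 and Defb20, was uneven in size, and did not pass the threshold in 1 of the 4 features of BC049753. Of 3099 exon features 1326 differed between the tissues, or 42.8%, with 599 higher in adipose samples, or 19.3%, and 727 higher in muscle, or 23.5% (limma, adjusted p under 0.05). All 6 features of Tnnc2 and all 6 of Mylk2 were higher in muscle, and all 4 of Spint4, all 3 of Cst11 and both of Defb20 higher in adipose samples. The 6 differences of Tnnc2 ran from -6.60 to -2.67 and the 4 of Spint4 from 2.37 to 5.52. Rpn2 was mixed, with 16 of 21 features higher in adipose samples and 4 higher in muscle.

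Each feature of a gene with at least 4 features was then set against the mean of the others on the same array. Of 2901 such features 1102, or 38%, departed from the rest of their gene between tissues, 567 (19.5%) towards adipose samples and 535 (18.4%) towards muscle, in 224 of 246 genes. Such a departure was thus common on this array, and its source was not tested. The last feature of Tnnc2 departed by 2.75 ± 0.18, with a mean level of 12.63 on adipose arrays and of 15.30 on muscle arrays, the latter among the values limited by the normalization.

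A few single features went against an otherwise small difference of their gene. In Xrn2, a nuclear exonuclease that trims RNA ends, feature 21 of 30, 85 bases at 146800195 to 146800279 of chromosome 2, stood at 12.61 to 13.47 on muscle arrays and at 10.58 to 10.87 on adipose arrays. Its difference of -2.29 opposed that of 0.41 over the rest of the gene, a departure of -2.70 ± 0.13 (limma, adjusted p = 3.55e-09). In Acot8, a thioesterase of peroxisomes, feature 4 of 9, 227 bases at 164862832 to 164863058, stood at 12.54 to 12.87 in muscle and 10.04 to 10.68 in adipose samples, where the rest of the gene differed by 0.11. The departure was -2.53 ± 0.10 (limma, adjusted p = 8.32e-10). In Ralgapb, a subunit of a complex that inactivates Ral GTPases, feature 17 of 29, 189 bases at 158525419 to 158525607, departed by -2.32 ± 0.15 (limma, adjusted p = 8.64e-08), with 12.91 to 13.78 in muscle and 10.85 to 11.42 in adipose samples.

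In the opposite direction, feature 3 of 6 of Ywhab, 125 bases at 164077354 to 164077478, was at 9.78 to 10.93 in adipose samples and at 7.55 to 8.08 in muscle. Its departure was 2.08 ± 0.15 (limma, adjusted p = 1.33e-07). In BC049753 the first of 4 features did not differ past the threshold (-0.18; limma, adjusted p = 0.337), while the other 3 were higher in adipose samples by 3.01, 3.96 and 5.01. The last feature of Spint4 departed by 2.11 ± 0.16. No feature of another gene on the array overlapped any of the 8 named features.

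**Figure D4:**
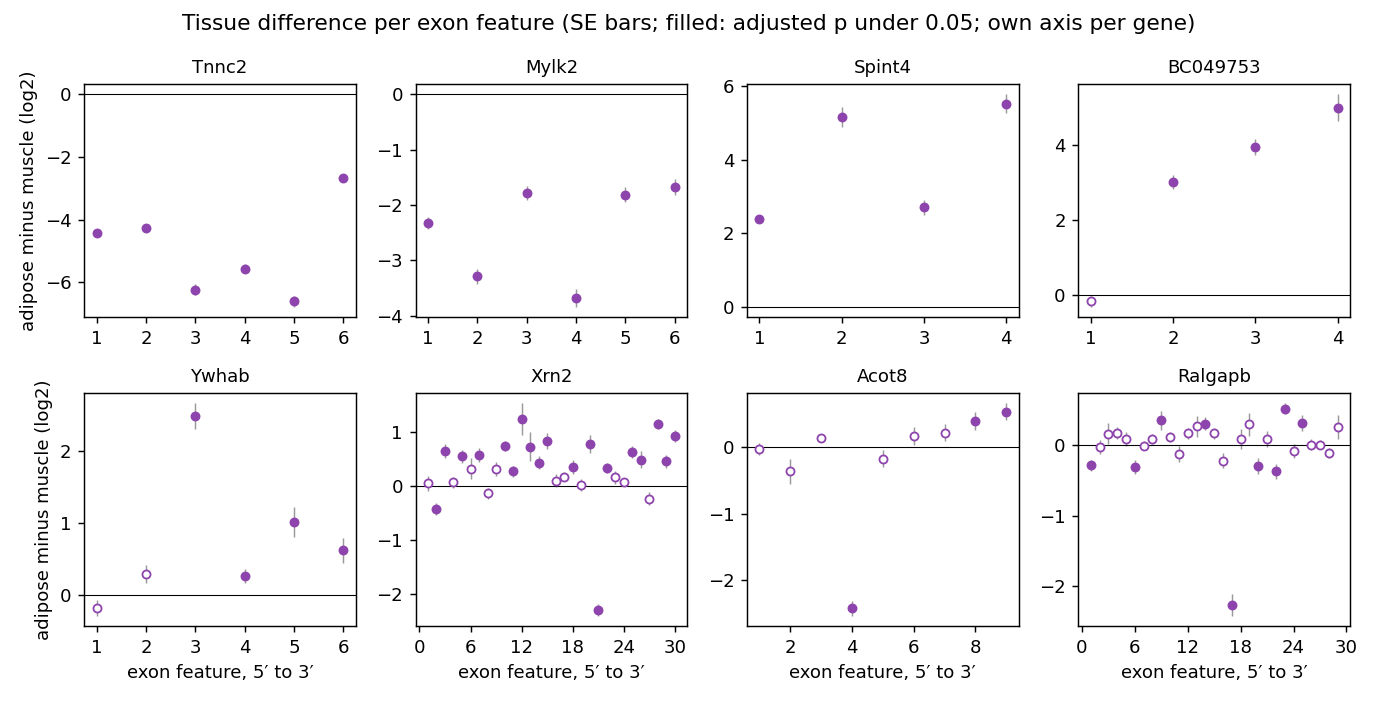
Adipose minus muscle difference of each exon feature in log2 units (vertical axis, own scale per gene, SE bars) by feature number in the direction of transcription (horizontal axis), filled where the adjusted p was under 0.05. All features of Tnnc2 and Mylk2 lie below 0 and all of Spint4 above it, and Xrn2, Acot8 and Ralgapb each have 1 feature below -2.

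The tissue differences were also taken within B6 and within congenic mice. The 163 genes were called on the mean of both genotypes, so that a shared sign, which all 163 had, is no independent check. For the tissue difference within B6 mice 94 of them passed, for that within congenic mice 101, and 72 for both. These counts come from a joint fit of the arrays of both genotypes, in which the variance is shared. Separate fits called 100 of all genes with only the B6 arrays and 78 with only the congenic arrays. Tnnc2 differed by -5.08 in B6 and by -4.98 in congenic mice, Spint4 by 3.75 and 4.13, and Cst11 by 3.66 and 3.80. The test of the difference itself, the tissue by genotype interaction, gave 0 of 341 genes in limma, or 0%, and 17 at an unadjusted p under 0.05. The authors' value table gave 10 of the 301 genes it could name.

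The smallest interaction p-values belonged to Defb29, Zfp937 and Adig. Defb29 stood at 11.80, 11.88 and 11.77 on B6 adipose arrays, at 11.41, 11.46 and 11.28 on congenic adipose arrays and at 10.37 to 10.47 over the 6 muscle arrays. The B6 adipose arrays were thus above the congenic ones, with no such gap in muscle. The tissue difference was 1.37 in B6 and 0.96 in congenic mice (interaction -0.41 ± 0.08; limma, adjusted p = 0.0575). For Adig it was 0.69 and 0.28 (interaction -0.41 ± 0.08; limma, adjusted p = 0.0575). For Zfp937, a zinc finger gene with 1 feature, it was 0.14 and 0.65 (interaction 0.51 ± 0.10; limma, adjusted p = 0.0575), with adipose levels of 9.62, 9.72 and 9.72 in B6 and of 10.23, 10.24 and 10.20 in congenic mice. These 3 genes did not pass. Over the 14 other settings the adjusted p (limma) ran from 0.0246 to 0.796 for Defb29, from 0.00462 to 0.820 for Adig and from 0.0267 to 0.658 for Zfp937, and without normalization between arrays the sign of Defb29 (0.18) and Adig (0.15) turned. Leaving out B6 muscle replicate 1 gave 1 interaction gene, Zfp937 (0.60; limma, adjusted p = 0.00815).

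**Figure D5:**
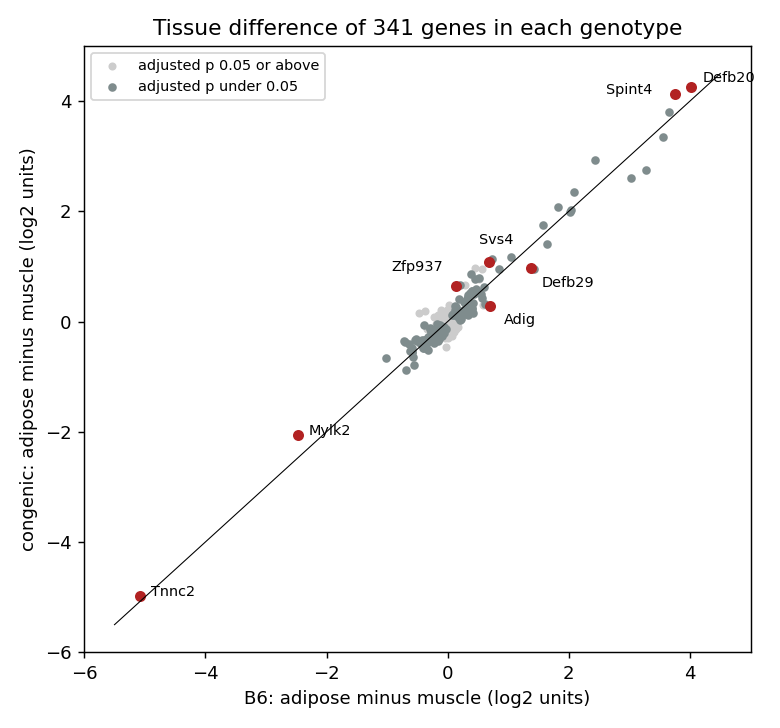
Adipose minus muscle difference in congenic mice (vertical axis) against that in B6 mice (horizontal axis) for 341 genes in log2 units, with the line of equal differences. Tnnc2, Mylk2, Spint4 and Defb20 lie along the line, Defb29 and Adig lie below it and Zfp937 above it.

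Brain and liver, which lay on another slide, give a description of where else these genes were seen. With all 24 arrays normalized together, Defb20 had a mean of 12.90 ± 0.23 in adipose samples, 9.09 ± 0.51 in muscle, 8.77 ± 0.18 in brain and 8.73 ± 0.11 in liver (SD, n = 6). Spint4 was at 11.83, 8.21, 8.03 and 8.05, and Cst11 at 13.02, 9.42, 9.15 and 8.80, in the same order. For these 3 genes the adipose mean stood above the means of the other 3 tissues, which lay close together. Tnnc2 was at 13.87 in muscle and between 8.81 and 9.12 in the other tissues. Adig was at 11.09 in adipose samples and at 10.59 to 10.61 in the other tissues, and Lep at 9.17 in adipose samples, 9.16 in brain, 9.10 in liver and 8.84 in muscle. The slide and the tissue cannot be told apart in these values.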

How the data were processed

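Per the file headers, each deposited sample file lists 3919 exon rows with a linear intensity, averaged over 2 to 14 probes. The authors' series table holds intensity values of 13388 probes on a linear scale, deposited after processing. The submitters' processing notes list RMA without settings. Here, normexp with an offset of 50 corrected the background of the sample files, and quantile normalization over the 12 arrays and log2 followed. Rows of identical coordinates in a gene were averaged to 3099 features, and median polish gave 341 gene values, 301 with a gene symbol and 40 transcripts named by accession. RefSeq held 300 of the 301 symbols. Tests used limma 3.58.1 in R 4.3.3 with tissue and genotype, Benjamini-Hochberg adjustment over all genes or features and a threshold of 0.05. They were tried on 1 set of simulated data. There 95% of 40 genes changed by 0.5 log2 units were called, 100% of 40 changed by 1, and 4.60% of 261 unchanged genes. The last is a share of unchanged genes and not of called genes. Among the called genes, the share of unchanged ones was larger and above the threshold of 0.05. Features of a gene were simulated independently, without noise shared on an array. The shares of changed genes called may therefore be too high for real arrays. Precision is limited by 6 arrays per tissue. Python 3.11.15 with matplotlib 3.10.9 drew the plots.

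Of the 24 files, 7 matched the series table's column of their own replicate best, 17 another replicate of their own group and 0 another group. Replicate numbers therefore only name samples. Deviations of adipose and muscle arrays of the same number correlated at -0.52 to 0.34, so the numbers were not taken to pair samples.

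The comparison and the gene lists were chosen with earlier results of these data known. Genes were named by a rule: the 12 largest called differences in each direction, up to 6 called members of the main lists and up to 4 of the others with 2 members not called, the 3 smallest interaction p-values, and the 4 largest exon departures in each direction. Members not called and not described above were Spag4 (-0.08), Slc32a1 (-0.12), Epb41l1 (-0.09), Ube2c (-0.10), Mybl2 (0.07), Sstr4 (-0.08) and Plagl2 (-0.10). Spag4 passed without B6 muscle replicate 2 (-0.10) and Slc32a1 without B6 adipose replicate 1 (-0.17). Spag4, Slc32a1, Epb41l1 and Ube2c also passed under some other settings. Alternatives covered normalization, background correction, summarisation, dim features, blocks, array weights and each array left out.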

Additional observations from a re-analysis of the deposited data

Results flagged for a closer look

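For the genes picked by the naming rule, 148 sets of 6 arrays of the same tissue were examined for an array far from the others. The measure was the gap to its nearest neighbour as a share of the range (Dixon's critical value), and 11 sets had such an array. Chance marks about 1 set in 20 at this level.

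In muscle, congenic replicate 3 was highest for Svs4 (13.36, next 10.31) and Svs2 (11.00, next 8.50). B6 muscle replicate 3 was highest for B2m (13.14, next 12.42), B6 muscle replicate 1 for the agouti gene a (12.11, next 11.88) and congenic muscle replicate 1 for Acss2 (10.28, next 10.07). Congenic muscle replicate 2 was lowest for Cd40 (9.62, next 9.72) and Cst9 (8.85, next 9.07), and congenic muscle replicate 3 for Rin2 (9.43, next 9.56). In adipose tissue, B6 replicate 1 was lowest for Cd93 (10.85, next 11.11) and highest for Rin2 (9.74, next 9.45), and congenic adipose replicate 3 was highest for Ndrg3 (10.74, next 10.68). Values are log2 intensity. The 2 Svs genes are the ones with a gap of over 2 log2 units, and their cause was not tested.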

How the results depend on the processing

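The 12 genes with the largest called difference in each direction kept their sign and their call whichever of the 12 arrays was left out. Under the 17 other settings (16 for transcripts absent from the authors' value table) the 12 higher in adipose samples, Tnnc2 and Mylk2 also kept both. The other 10 higher in muscle kept their sign and lost their call without normalization between arrays, and Rab5if also with only congenic arrays. Without that normalization 21 genes passed (19 higher in adipose samples, 2 higher in muscle) and 210 exon features (131 and 79). With only the B6 arrays 100 genes (51 higher in muscle), 722 features (321 and 401) and 514 departing features (243 and 271) passed, and with only the congenic arrays 78 genes (37 and 41), 812 features (368 and 444) and 616 departing features (308 and 308), with 6 arrays in each fit. A fit of all 8 groups over 24 arrays gave 63 genes higher in muscle, 873 features (392 and 481) and 649 departing features (313 and 336). The interaction gave 3 genes after quantile normalization over 24 arrays, 3 with no background correction, 10 with the authors' value table, 3 with the mean of exon features and 2 with array weights. Foxa2 changed sign to 0.0051 (limma, adjusted p = 0.956; 0.0121 to 0.999 over its alternatives) when dim exon features were left out. The cause was not tested. With each array left out in turn, 137 to 156 genes passed, 55 to 64 of them higher in adipose samples and 79 to 93 higher in muscle, with 1169 to 1373 features (521 to 623 and 641 to 750), 992 to 1165 departing features (496 to 594 and 484 to 571) and 0 to 1 interaction genes. With the replicate block 147 genes passed (59 higher in adipose samples and 88 higher in muscle), 1240 features, 1103 departing features and 0 interaction genes. It ended the calls of Ahcy (limma, adjusted p = 0.0557; 3.21e-04 to 0.999 over its alternatives) and Ndrg3 (adjusted p = 0.0865; 3.67e-06 to 0.999). In the authors' value table the called differences of Jph2 (-1.13), Acss1 (-0.74) and Lbp (0.68) were over 1.5 times larger. The scanner's range limits Tnnc2 from above, and dim genes are limited by background.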

Other observations

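The genes over 2-fold higher in adipose samples were spread along chromosome 2. In windows of 5 Mb in the files' coordinates, 4 of them lay between 145 and 150 Mb, 3 between 150 and 155 Mb, 2 between 155 and 160 Mb and 3 between 160 and 165 Mb, and single genes lay between 120 and 125 Mb and between 140 and 145 Mb. Hprt and Ppia, also over 2-fold higher, lie on other chromosomes. Called genes of both directions were found in each window from 140 to 170 Mb.

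Among genes not yet described, Dstn, which encodes the actin-severing protein destrin, was higher in adipose samples by 1.11 ± 0.07 and Abhd12, which encodes a lipid hydrolase, by 0.94 ± 0.08 (SE, n = 6 per tissue), both without overlap. Apmap, a membrane protein gene of adipocytes, was higher by 0.63 ± 0.13 and Bpi, of the lipid-binding family of Lbp and Pltp, by 0.53 ± 0.06. AK040896, a transcript without a symbol that overlaps Cnbd2, was higher by 1.53 ± 0.09. These genes were picked after their values were seen.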
